A study of Mus musculus with 9 samples.

Results

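The genes described here encode the SYK and phosphatase signalling machinery that can lie below DNGR-1, and they were taken by symbol from the count table: Syk, Lyn, Plcg2, Vav1, Card9, Bcl10, Malt1, Ptpn6, Ptpn11 and Inpp5d, 10 of the 51912 genes listed. All 10 were found in the table and all 10 passed the filter on low counts in both comparisons. Bulk RNA-seq was done on pre-cDCs, the committed precursors of conventional dendritic cells (cDCs), sorted from the bone marrow (BM) and the spleen of mixed BM chimeras. WT cells came from BL/6 CD45.1 donors and DNGR-1 KO cells from Clec9aCre/Cre CD45.2 donors, both mixed 1:1 in lethally irradiated CD45.1/2 recipients, so that the chimeric host was shared by the groups. BM gave 3 samples of each genotype, while spleen gave 1 WT sample and 2 DNGR-1 KO samples. Each sample was pooled from a pair of mice, and splenic cDC1s were not analysed here. The Clec9aCre allele was made in BL/N-derived embryonic stem cells and backcrossed, and it puts Cre in the place of DNGR-1. The labels are at odds over the WT cells, which are CD45.1 by their source and CD45.2 by their description. Since nothing states that the pools of a group were independent transplants, p-values measure the spread between these samples. Samples of both genotypes and tissues may have come from the same chimeras, and the main tests treated them as unpaired.

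DNGR-1, the product of Clec9a, is a C-type lectin receptor that binds F-actin exposed by dead cells and carries a hemITAM, a short tyrosine motif in its cytoplasmic tail. When such a motif is phosphorylated by Src family kinases, it recruits the kinase SYK, and in related receptors SYK acts through PLCγ2, VAV1 and the CARD9-BCL10-MALT1 complex to calcium signalling, actin remodelling and NF-κB. The tyrosine phosphatases SHP-1 and SHP-2 and the lipid phosphatase SHIP-1 limit or redirect signals of this kind in myeloid cells, and DNGR-1 itself is known to engage SHP-1.

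Upstream sequences of 4 of these genes are shown because they hold the same short motif close to a transcription start. A core bound by ETS family factors, AGGAAGT or its reverse complement ACTTCCT, was searched on both strands in the 250 bases before each start listed by RefSeq (GRCm38.p6). It was found for Inpp5d, Vav1, Card9 and Ptpn6, 4 of the 8 genes for which a sequence was read, and in 7.69% of all 32851 windows of that length. Here and for the spellings below, a gene counted if any of its windows held the motif, whereas the share of all windows was taken window by window. The figures are therefore in unlike units. The stretches below run 5′ to 3′ on the strand of the gene, and capitals mark the core.
Inpp5d, chr1:87620252-87620311, plus strand: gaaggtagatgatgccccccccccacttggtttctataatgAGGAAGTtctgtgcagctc
Vav1, chr17:57279040-57279099, plus strand: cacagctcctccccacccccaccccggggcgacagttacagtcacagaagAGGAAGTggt
Card9, chr2:26360910-26360969, minus strand: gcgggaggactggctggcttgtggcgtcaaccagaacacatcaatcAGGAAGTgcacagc
Ptpn6, chr6:124738870-124738929, minus strand: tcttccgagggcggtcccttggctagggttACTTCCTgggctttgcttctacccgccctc
The core began 19, 10 and 14 bases before the start in Inpp5d, Vav1 and Card9, and 190 bases before it in Ptpn6. The overlapping spellings GAGGAAG (or CTTCCTC) and GAGGAA (or TTCCTC) were tried as well. GAGGAAG was present in 2 of the 8 genes and in 10.6% of all windows, and GAGGAA in 4 of the 8 genes and 23.3% of all windows. Spi1, which encodes the ETS factor PU.1, was measured at 144 ± 42.3 CPM (SD, n = 6) in BM and at 138 ± 82.0 CPM (n = 3) in spleen; its binding was not measured.

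Total counts per sample were 17103806 to 23722298, at which 3 counts amount to 0.126 to 0.175 CPM (counts scaled to the library total by the TMM method of edgeR). The 14 pre-cDC markers, among them Flt3, Kit and Irf8, were over that floor in every sample, with summed levels of 4426 to 7681 CPM in BM and 4224 to 5599 CPM in spleen. Clec9a checked the genotype labels: it was at 53.5, 81.6 and 90.6 CPM in WT BM and at 145 CPM in WT spleen, against 1 count in each BM sample and 0 counts in each spleen sample of DNGR-1 KO cells. The edgeR adjusted p of Clec9a in BM was 9.38e-06.

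All of the signalling genes were expressed in all 9 samples, and their order of level was nearly the same in BM and spleen. Levels of different genes were compared per length, as RPKM over the union of exons. Ptpn6, which encodes SHP-1, was the highest in BM at 372 ± 78.1 RPKM (SD, n = 6). It was followed by Lyn, which encodes a Src family kinase, at 89.0 ± 28.0 RPKM, by Vav1, which encodes an exchange factor for RAC, at 69.8 ± 22.3 RPKM, and by Plcg2, the phospholipase gene, at 51.9 ± 23.6 RPKM. Inpp5d, which encodes SHIP-1, had 31.7 ± 13.5 RPKM. The adaptor gene Bcl10 had 17.4 ± 2.89 RPKM and Card9, the gene of the scaffold it binds, 9.87 ± 1.57 RPKM. Syk stood low in this order at 8.33 ± 2.38 RPKM, above Ptpn11, which encodes SHP-2, at 4.15 ± 0.629 RPKM and Malt1, which encodes the paracaspase of the complex, at 1.12 ± 0.301 RPKM.

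Only Ptpn6 and Lyn, Bcl10 and Card9, and Ptpn11 and Malt1 were neighbours in this order whose BM ranges did not overlap. The other neighbours overlapped, but Lyn was above Vav1 and Vav1 above Plcg2 in 6 of 6 BM samples, Plcg2 above Inpp5d in 6 of 6, and Syk above Ptpn11 in 5 of 6. In spleen (n = 3) the means fell in the same order, from 440 ± 120 RPKM for Ptpn6 and 111 ± 33.9 RPKM for Lyn to 6.98 ± 2.64 RPKM for Syk, 2.85 ± 0.911 RPKM for Ptpn11 and 1.36 ± 1.15 RPKM for Malt1. The order of 3 pairs of neighbours depended on the length used. Divided by the longest transcript, Syk was above Card9 in BM, at 14.5 and 11.6 RPKM. By that length the BM ranges of Ptpn11 and Malt1 overlapped as well, around means of 4.18 and 3.15 RPKM. In spleen, by that length, Inpp5d was above Plcg2, at 60.3 and 51.1 RPKM, and Malt1 above Ptpn11, at 3.82 and 2.87 RPKM.

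**Figure D1:**
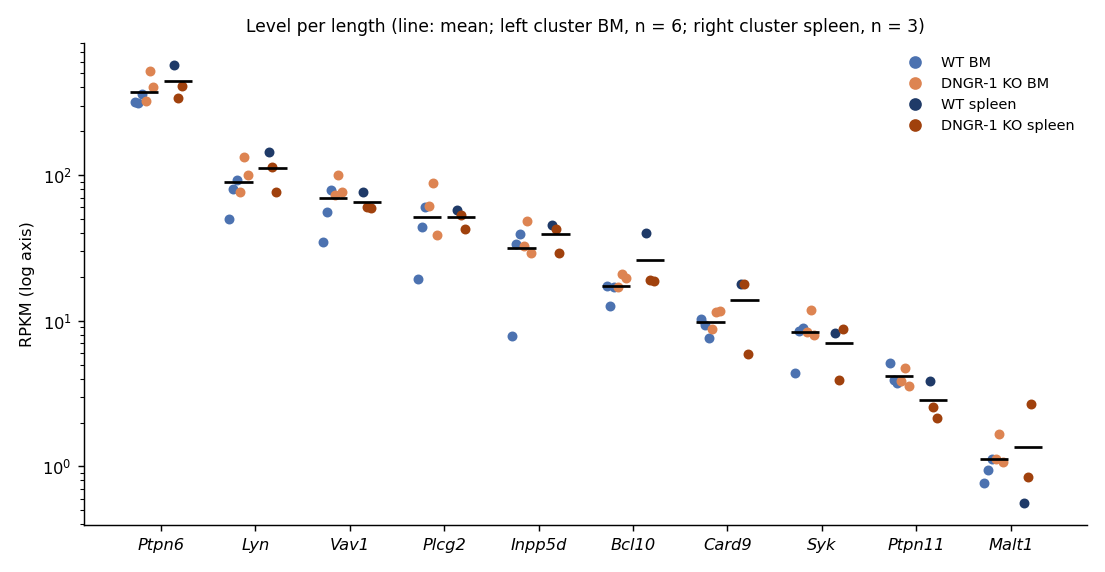
Level per length of the 10 genes (RPKM, log axis) in each sample, coloured by group, with lines for the means of BM (left, n = 6) and spleen (right, n = 3). Ptpn6 lies above 314 RPKM in every sample, Syk between 3.94 and 11.8 RPKM and Malt1 between 0.56 and 2.67 RPKM.

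Whether the level of this signalling machinery differed between DNGR-1 KO and WT cells was asked first in BM, with 3 samples of each genotype. Genotype and the CD45 strain of the donors changed together, so their parts cannot be told apart. The paper regressed out a score of chromosome 1 genes that differ between these strains. No such term was used here, and none of the 10 genes lies in that interval. None of the 10 genes passed the test between genotypes. Among all 13016 genes tested, 4 passed the adjusted threshold of 0.05, which is 0.0307%, and 498 had an unadjusted p under 0.05; of the signalling genes, 0 passed either limit, and by DESeq2, limma-voom or limma on the deposited VST values 0 passed the adjusted threshold. The estimates were above 0 for 9 of the 10, against 49.6% of all genes, with a median log2 fold change of 0.39 against -0.0045 over all genes. In 0 of the 10 was every DNGR-1 KO sample above every WT sample, an arrangement that 5.12% of all genes showed. Fewer cells of a type in a sorted sample and less RNA per cell cannot be told apart in these bulk data.

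Of the kinases, Syk (chromosome 13, 52583173 to 52648792, plus strand, GRCm38) was measured at 41.0, 79.8 and 83.1 CPM in WT, against 78.6, 110.7 and 75.1 CPM in DNGR-1 KO BM. The groups overlapped, with WT sample 1 well below the other 5. The log2 fold change of Syk was 0.36 (SE 0.30, 95% interval -0.32 to 1.04, edgeR adjusted p = 0.861). Lyn (chromosome 4, 3678115 to 3813122) was at 203, 325 and 379 CPM in WT, against 313, 545 and 410 CPM in DNGR-1 KO, again overlapping, with a log2 fold change of 0.47 (SE 0.29, edgeR adjusted p = 0.861).

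Plcg2 and Vav1, whose products act directly below SYK, had the highest estimates of the 10 and wide errors. Plcg2 (chromosome 8, 117498291 to 117635142) was at 82.6, 189 and 257 CPM in WT, against 263, 380 and 166 CPM in DNGR-1 KO BM. The genotypes overlapped, since DNGR-1 KO sample 3 lay below WT samples 2 and 3. The log2 fold change of Plcg2 was 0.60 (SE 0.41, 95% interval -0.32 to 1.52, edgeR adjusted p = 0.861). Vav1 (chromosome 17, 57279100 to 57328031) was at 128, 204 and 292 CPM in WT, against 270, 369 and 282 CPM in DNGR-1 KO, where only WT sample 3 reached the DNGR-1 KO range, and its log2 fold change was 0.55 (SE 0.30, edgeR adjusted p = 0.861, unadjusted 0.098).

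Of the CARD9-BCL10-MALT1 genes, Card9 and Bcl10 spread over 1.51-fold and 1.67-fold from the lowest to the highest BM sample, and Malt1 over 2.16-fold. Card9 (chromosome 2, 26352176 to 26360918) was at 23.7, 21.6 and 17.5 CPM in WT, against 20.0, 26.4 and 26.5 CPM in DNGR-1 KO, Bcl10 (chromosome 3, 145922804 to 145934356) at 79.4, 57.2 and 77.7 CPM and 77.7, 95.5 and 89.9 CPM, and Malt1 (chromosome 18, 65430938 to 65479067) at 13.9, 17.2 and 20.4 CPM and 20.2, 30.1 and 19.3 CPM. In each of these genes the genotypes overlapped. The log2 fold changes were 0.20 (SE 0.26) for Card9, 0.28 (SE 0.23) for Bcl10 and 0.42 (SE 0.29) for Malt1, with edgeR adjusted p of 0.902, 0.861 and 0.861.

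Among the phosphatase genes, Ptpn6 (chromosome 6, 124720707 to 124738714, 4.69 Mb from Clec9a) was at 886, 880 and 1010 CPM in WT, against 906, 1445 and 1126 CPM in DNGR-1 KO BM. WT sample 3 lay within the DNGR-1 KO range. The log2 fold change of Ptpn6 was 0.31 (SE 0.23, 95% interval -0.20 to 0.82, edgeR adjusted p = 0.861). Ptpn11 (chromosome 5, 121130533 to 121191397) had the only estimate below 0, with 38.4, 29.5 and 27.9 CPM in WT, overlapping with 28.8, 35.6 and 26.6 CPM in DNGR-1 KO, and a log2 fold change of -0.093 (SE 0.25, edgeR adjusted p = 0.952). Inpp5d (chromosome 1, 87620312 to 87720507) was the most variable of the 10 in BM, at 59.9, 254 and 298 CPM in WT, against 246, 367 and 222 CPM in DNGR-1 KO. WT sample 1 lay far below all others and the other WT samples within the DNGR-1 KO range, and the log2 fold change was 0.44 (SE 0.48, 95% interval -0.64 to 1.51, edgeR adjusted p = 0.886).

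**Figure D2:**
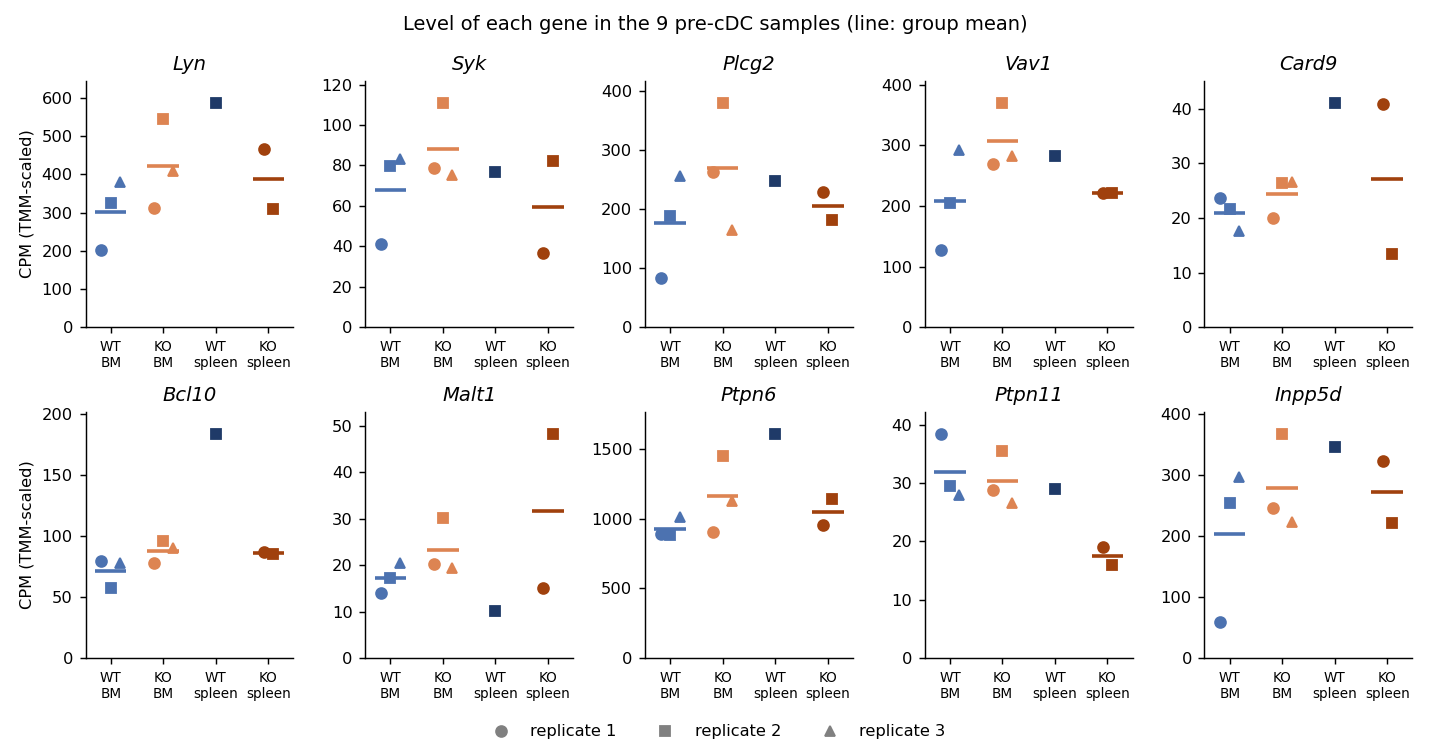
CPM of each of the 10 genes in the 9 samples, by genotype and tissue, with the symbol giving the replicate number and the line the group mean (no line for the single WT spleen sample). WT BM sample 1 is the lowest BM sample for 6 of the genes, and WT and DNGR-1 KO BM samples overlap in every panel.

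For these genes 2 BM libraries stood apart from the others. In WT BM sample 1 the 10 genes deviated from the mean of the other 5 BM samples by a median log2 value of -0.76, and 6 of them were at their lowest there: Syk by -1.04, Lyn by -0.93, Vav1 by -1.12, Plcg2 by -1.54, Malt1 by -0.59 and Inpp5d by -2.19. In DNGR-1 KO BM sample 2 the median deviation was 0.69 and 0 of the 10 were below the others. The share of all genes that were lowest in WT sample 1 or raised in DNGR-1 KO sample 2 was not counted, so these shifts need not be particular to the 10 genes. Without WT sample 1, the ratio of the highest to the lowest BM sample dropped from 6.13 to 1.65 for Inpp5d, from 4.60 to 2.29 for Plcg2 and from 2.70 to 1.47 for Syk.

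WT sample 1 also differed from the other BM libraries by transcript length. Over genes with a mean of at least 10 CPM in BM, its median deviation was 0.47 in the shortest of 4 equal length classes and -0.45 in the longest, whereas the other BM samples stayed between -0.22 and 0.25 in every class. The genes that were not low there, Card9 (0.10), Bcl10 (0.02) and Ptpn11 (0.38), had longest transcripts of 1947, 2368 and 7442 bases. Summed erythroid markers were highest in WT sample 1, at 5391 CPM, and lowest in DNGR-1 KO sample 2, at 258 CPM, against 1216 to 3115 CPM in the other 4 BM samples. Most of this sum was a single gene, Car1, with a BM mean of 2188 CPM, so it does not describe erythroid transcripts as a whole. The 8 markers did not move together between genotypes, and 0 of them passed the threshold. The log2 fold change was above 0 for 4 of them, such as the globin gene Hba-a1 (0.53), and below 0 for the others, such as Car1 (-1.64). The part of length and of these erythroid transcripts in the levels of the signalling genes was not tested. Without WT sample 1 the median log2 fold change of the 10 genes was 0.20 and 0 of them passed the threshold, and the estimate of Inpp5d was 0.0093 in place of 0.44. The estimates without it were 0.11 for Syk, 0.26 for Lyn, 0.26 for Plcg2 and 0.30 for Vav1, and without DNGR-1 KO sample 2 they were 0.18, 0.26, 0.27 and 0.41. Without WT sample 3 they were higher, at 0.53, 0.66, 0.97 and 0.86.

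**Figure D3:**
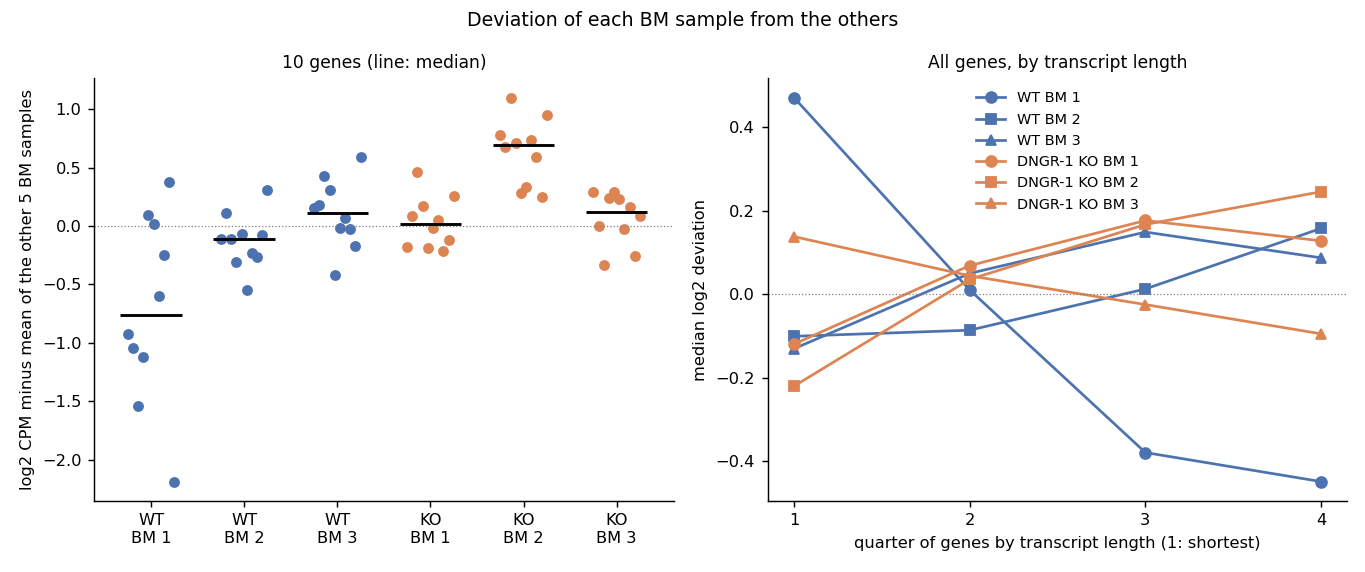
Left, log2 CPM of each of the 10 genes in each BM sample minus the mean of the other 5 BM samples (line: median). Right, the median of the same deviation over all genes in 4 classes of transcript length. WT BM sample 1 is low for the signalling genes, with a median of -0.76, and falls from 0.47 to -0.45 from the shortest to the longest class.

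Of the receptors, kinases, adaptors and inhibitors around this core, 1 listed gene besides Clec9a passed the threshold between genotypes in BM. Clec7a, which encodes Dectin-1, a hemITAM receptor that signals through SYK and CARD9, was at 31.4, 45.09 and 34.5 CPM in WT, against 137, 293 and 295 CPM in DNGR-1 KO BM. Every DNGR-1 KO sample was above every WT sample, the arrangement found in 5.12% of all genes, with a log2 fold change of 2.69 (SE 0.34, edgeR adjusted p = 0.0437). The call was lost in 5 of the 6 fits that left out 1 sample, where edgeR adjusted p was 0.351, 0.363 and 0.366 without WT sample 1, 2 and 3 and 0.158 and 0.219 without DNGR-1 KO sample 2 and 3. It was also lost by limma on the VST values (adjusted p = 0.50) and in an edgeR fit of all 9 samples (adjusted p = 0.413), while the log2 fold change lay between 1.92 and 2.98 over these 6 fits and the 8 other alternatives. Clec7a begins 52.7 kb from the start of Clec9a on chromosome 6; whether its level follows the altered allele or the strain of that region cannot be told apart. Of the other lists, 0 of 7 Src and Csk family kinases, 0 of 17 adaptors, 0 of 10 VAV and RAC genes, 0 of 11 tyrosine phosphatases and 0 of 15 ITIM receptors tested were called. At an unadjusted p under 0.05 there was 1 more gene among the receptors (Fcgr4, 2.71), 1 among the NADPH oxidase subunits (Cybb, 0.94), 1 among the adaptors (Lcp2, encoding SLP-76, 0.79), 1 among the VAV and RAC genes (Was, 0.66), 1 among the tyrosine phosphatases (Ptpra, -0.62) and 2 among the ITIM receptors (Siglecf, 0.85, and Pecam1, 0.85); these were chosen after their values were seen, and each had an edgeR adjusted p of 0.861.

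Tissues were then compared over the 9 samples with a term for genotype, a comparison that shares its BM samples with the one above. Again none of the 10 genes passed, although 7.28% of the 13468 genes tested were higher and 12.3% lower in spleen. At an unadjusted p under 0.05 there were 4517 genes in all and 0 of these 10, and in none of the 10 did the spleen and BM samples separate without overlap. Estimates were above 0 for 6 genes and below for 4, with a median log2 fold change of 0.15 against -0.18 over all genes.

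Bcl10 had the lowest adjusted p of the 10 between tissues, with a log2 fold change of 0.58 (SE 0.28, 95% interval -0.050 to 1.20, edgeR adjusted p = 0.184). The WT spleen sample lay above all BM samples, at 183 CPM, while both DNGR-1 KO spleen samples, at 86.6 and 84.9 CPM, lay within the BM range of 57.2 to 95.5 CPM. Without the WT spleen sample the estimate was -0.014. Ptpn11 had the lowest estimate, -0.51 (SE 0.29, edgeR adjusted p = 0.272), with 29.0 CPM in WT spleen and 19.0 and 16.0 CPM in DNGR-1 KO spleen.

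For Syk the spleen samples gave 76.8 CPM in WT, against 36.9 and 82.2 CPM in DNGR-1 KO, of which 36.9 CPM lay below the lowest BM sample and the others within the BM range. The log2 fold change of Syk was -0.25 (SE 0.34, 95% interval -1.01 to 0.52, edgeR adjusted p = 0.683). Card9 (0.51, SE 0.39), Lyn (0.34, SE 0.30), Inpp5d (0.32, SE 0.44) and Ptpn6 (0.26, SE 0.23) had estimates above 0 with edgeR adjusted p between 0.423 and 0.678. Malt1 (0.050, SE 0.47), Plcg2 (-0.0078, SE 0.38) and Vav1 (-0.078, SE 0.28) were nearest to 0, with intervals that reached from -1.02 to 1.12 for Malt1 and from -0.72 to 0.56 for Vav1.

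**Figure D4:**
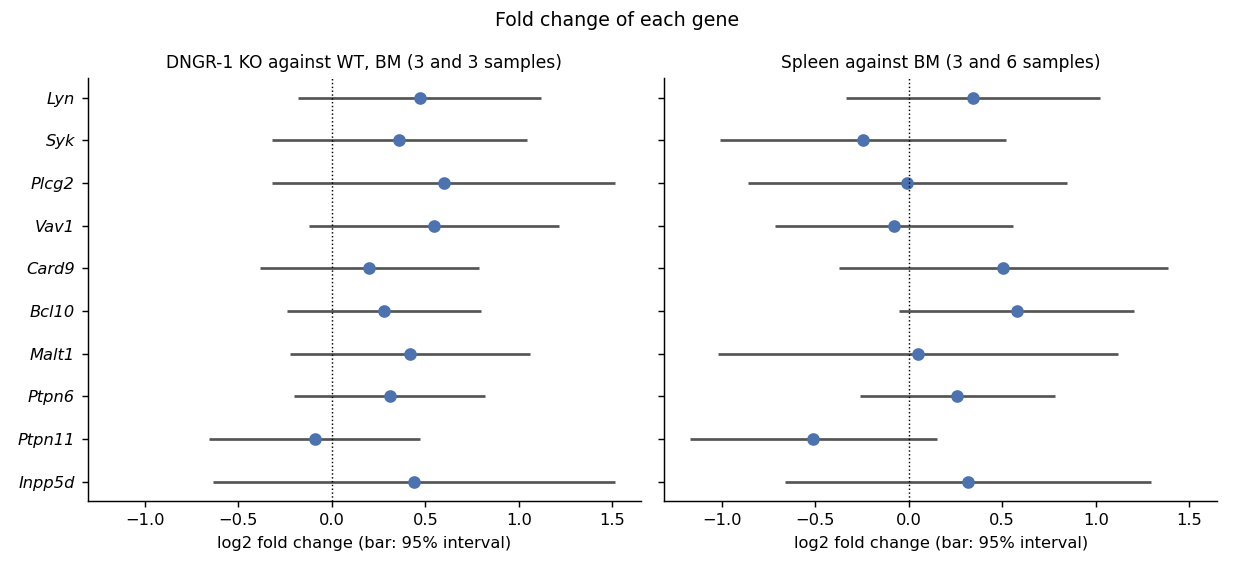
Log2 fold changes of the 10 genes with 95% intervals from the edgeR fits, for DNGR-1 KO against WT in BM (left) and spleen against BM (right). Every interval includes 0, and the estimates run from -0.093 to 0.60 on the left and from -0.51 to 0.58 on the right.

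Around these genes, the versions of the same signalling steps that T cells use differed between tissues, while most of those that myeloid cells use did not pass the test. Of 8 T cell counterparts, 6 were higher in spleen and 0 lower, with a median log2 fold change of 5.36, and of 12 myeloid counterparts (Syk, Lyn, Plcg2 and Card9 included) 1 was higher and 0 lower, with a median of 0.087. Leaving out each sample in turn gave 6 to 7 T cell counterparts and 1 myeloid counterpart higher in spleen, and without the WT spleen sample 1 myeloid counterpart was lower.

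Zap70, the T cell paralog of Syk, was at 0.51 CPM or less in each BM sample and at 37.7, 51.3 and 173 CPM in the spleen samples (edgeR adjusted p = 0.0012). Lck, the Src family kinase that phosphorylates the T cell receptor, was at 0.95 to 8.46 CPM in BM and at 240, 311 and 1058 CPM in spleen, a log2 fold change of 7.17 (SE 0.80, edgeR adjusted p = 0.00054). The spleen samples were all above the BM samples in both genes.

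Txk, a TEC family kinase gene, was at most at 1.0 CPM in BM and at 35.6 to 227 CPM in spleen. The adaptor genes Lat (5.87, SE 0.97) and Grap2 (1.63, SE 0.30) and the protein kinase C gene Prkcq (4.85, SE 1.09) rose in spleen with edgeR adjusted p between 0.0035 and 0.0135. Plcg1 (1.32, SE 0.60, edgeR adjusted p = 0.160) and Ubash3a (0.90, SE 1.81, edgeR adjusted p = 0.791) did not pass. Ubash3a was at 3.96 to 43.4 CPM in BM, at 0 counts in WT spleen and at 23.0 and 123 CPM in DNGR-1 KO spleen. Among the myeloid counterparts Fgr, a Src family kinase gene, passed alone, at 42.9 to 75.7 CPM in BM and 112 to 277 CPM in spleen, a log2 fold change of 1.73 (SE 0.28, edgeR adjusted p = 0.0033).

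**Figure D5:**
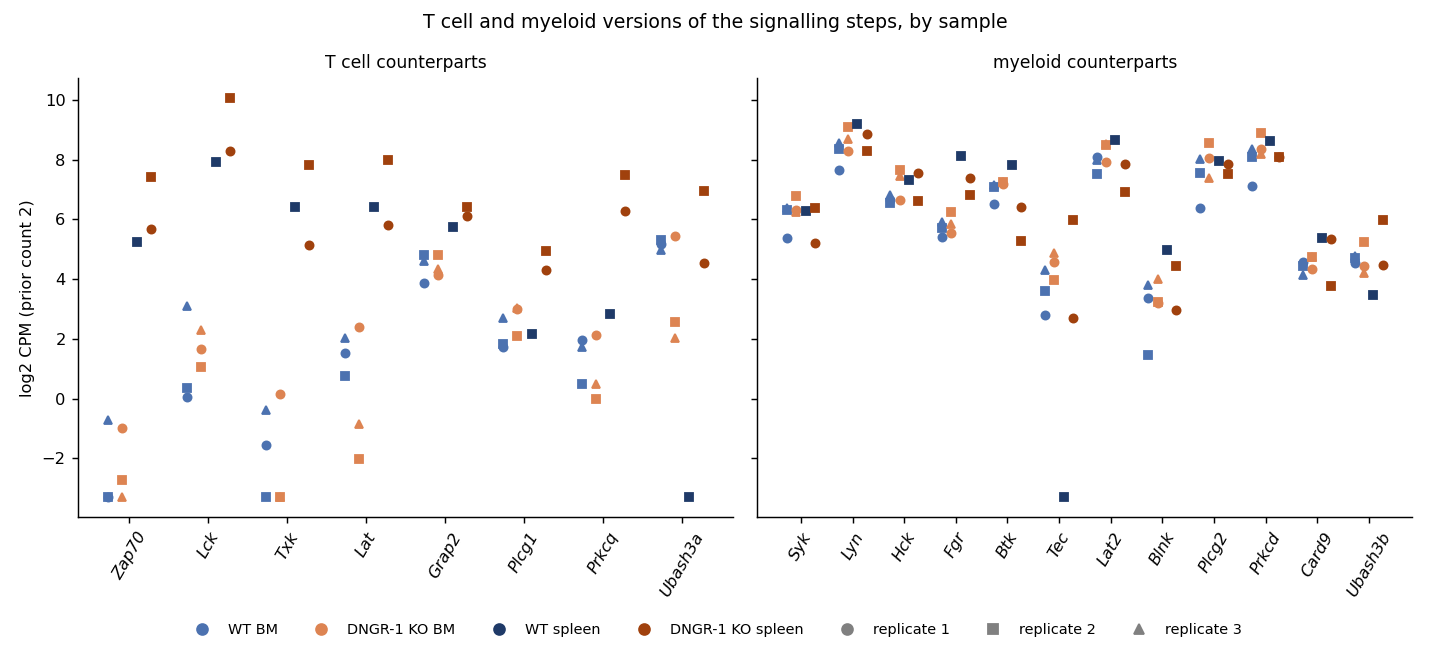
Log2 CPM (prior count 2) of the T cell counterparts (left) and the myeloid counterparts (right) of the signalling steps in each sample, coloured by group, with the symbol giving the replicate number. Zap70, Lck, Txk and Lat are above 35 CPM in every spleen sample and below 9 CPM in every BM sample, whereas Syk, Lyn and Plcg2 overlap between the tissues.

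T cell and NK cell transcripts moved with these counterparts. Of 13 T and NK cell markers, all 11 that were tested were higher in spleen. The summed level of the 13 was 1206, 1530 and 3977 CPM in the spleen samples against 50.5 to 111 CPM in BM. Most of the BM sum was Klrd1 and Nkg7, at means of 46.3 and 23.9 CPM. Both also made up most of the sum in WT spleen, at 513 and 220 CPM, so the sum is no measure of T and NK cell number. Cd3e and Cd3g, which define T cells, had 0 counts in the WT BM samples and reached 365 and 472 CPM in DNGR-1 KO spleen sample 2, although CD3 and NK1.1 were in the antibody mixture that excluded other lineages from the sort. Neutrophil markers moved the other way: 8 of 8 tested were lower in spleen, with a summed level of 994 to 3008 CPM in BM and 0.33 to 4.91 CPM in spleen. Most of the BM sum was the granule gene Mpo, at a mean of 1307 CPM, with S100a8 and S100a9 at 72.8 and 63.1 CPM. Ly6g and Retnlg, which were not tested, were at means of 0.34 and 0.63 CPM in BM, so the sum is no measure of neutrophil number. Erythroid markers summed to 8669, 50334 and 16138 CPM in the WT spleen sample and DNGR-1 KO spleen samples 1 and 2, against 258 to 5391 CPM in BM, with 5 of 8 higher and 2 lower in spleen. Different genes made up these sums. In spleen they were mostly globin transcripts, such as Hba-a1 at a mean of 7410 CPM against 52.2 CPM in BM. In BM they were mostly Car1, at a mean of 2188 CPM against 0.36 CPM in spleen. Macrophage markers summed to 601 CPM in the WT spleen sample and 562 and 790 CPM in DNGR-1 KO spleen samples 1 and 2, against 183 to 301 CPM in BM, with 5 of 9 tested higher. Adgre1, which encodes F4/80, was at 66.5 to 123 CPM in spleen and 1.75 to 10.2 CPM in BM. The part of these cell types in the levels of the signalling genes and of the list genes below was not tested.

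The lists around the core held further genes that passed between tissues. Among 13 hemITAM and ITAM receptors and adaptors, Clec1b (4.54, SE 0.75), Fcgr4 (5.34, SE 1.46) and Clec4n rose in spleen, and Clec4e and Trem2, which were at 7.37 CPM or less in BM and at 0.18 CPM or less in spleen, fell. Clec4n, which encodes Dectin-2, was at 0 counts in 5 of the 6 BM samples and at 6.56, 28.4 and 33.2 CPM in spleen. The call of Fcgr4 was lost without BM sample 1 or 3 of either genotype and without the WT spleen sample. Among 17 adaptors, Lcp2 (2.47), Fyb (2.75), Grap (2.21), Lat and Grap2 rose and Shc1 fell by 1.22 on the log2 scale, and the call of Shc1 was lost without any of 7 of the 9 samples, all but WT BM sample 1 and DNGR-1 KO spleen sample 1.

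Of 11 tyrosine phosphatases, Ptprc (CD45, 2.36, SE 0.23), Ptpn22 (3.66, SE 0.54) and Ptpn2 (1.16, SE 0.24, lost without the WT spleen sample) were higher in spleen while Ptpn6 and Ptpn11 were not called (1 phosphatase was lower without DNGR-1 KO spleen sample 2), and of 9 inositol phosphatases and DOK adaptors Inpp4b (3.43, SE 0.59) rose while Inpp5d was not called; 2 rose without WT BM sample 2 or without DNGR-1 KO spleen sample 1. Of 15 ITIM receptors, whose tails can recruit SHP-1, SHP-2 or SHIP-1, Cd72 (2.60), Pilra (4.04), Lilrb4a (2.21) and Siglece (1.90) rose. The call of Siglece was lost without any of 8 of the 9 samples, all but DNGR-1 KO spleen sample 1, that of Lilrb4a without the WT spleen sample, any 1 of the WT BM samples or sample 3 of DNGR-1 KO BM, and that of Pilra without the WT spleen sample. Of 10 regulators of the CARD9 complex, Cblb (1.79), a ubiquitin ligase gene, rose, a call lost without the WT spleen sample, and Trim62, at 0 counts in spleen, fell. Cybb (2.35) and Ncf4 (1.03), subunits of the NADPH oxidase, were 2 of 6 called, but 0 were called without the WT spleen sample and 1 without any of 6 others, all but WT BM sample 1 and DNGR-1 KO spleen sample 2. In 10 VAV and RAC genes there were 0 calls by edgeR. Of the other lists, 3 of 7 Src and Csk family kinases rose (Lck, Fgr and Fyn, 1.43, the last lost when any 1 of the DNGR-1 KO BM samples was left out and without DNGR-1 KO spleen sample 2), 2 of 5 SYK and TEC family kinases (Zap70 and Txk), 2 of 13 lipid kinase, PLCG and PKC genes (Prkcq and Prkcb, 2.62, the latter lost without the WT spleen sample) and 0 of 4 genes of the CARD-BCL10-MALT1 complex.

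In spleen, 1 WT sample was set beside 2 DNGR-1 KO samples, so the genotype difference has no replicate check and no test. Bcl10 was the only gene of the 10 for which both DNGR-1 KO samples lay at least 2-fold to one side of WT, with 183 CPM in WT against 86.6 and 84.9 CPM. By the same rule 9.03% of the 13218 genes were lower and 16.5% were higher in DNGR-1 KO spleen, and 0 of the 10 were higher.

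The DNGR-1 KO spleen samples disagreed for several of the genes. Syk was at 36.9 CPM in sample 1 and 82.2 CPM in sample 2, on either side of 76.8 CPM in WT. Card9 matched WT in sample 1, at 40.8 against 41.0 CPM, and was at 13.4 CPM in sample 2. Malt1 went the other way, with 10.1 CPM in WT against 15.2 and 48.2 CPM.

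Ptpn6 (1605 against 953 and 1141 CPM), Lyn (586 against 466 and 310 CPM), Ptpn11 (29.0 against 19.0 and 16.0 CPM), Vav1 (283 against 221 and 221 CPM), Inpp5d (347 against 324 and 222 CPM) and Plcg2 (248 against 229 and 182 CPM) were lower in both DNGR-1 KO samples than in WT. The share of all genes in this arrangement, which needs no set fold, was not counted, so no result about the members is drawn from it. DNGR-1 KO spleen sample 2, with the lowest Card9 and the highest Malt1 of all 9 samples, also had the highest T and NK marker sum, the highest Lck and the lowest level of Btk, the TEC family kinase gene of B and myeloid cells, at 38.7 CPM against 84.4 CPM in sample 1 and 224 CPM in WT. It had the highest macrophage marker sum too, at 790 CPM, but the macrophage markers did not move together. Vcam1, C1qa and C1qb were at 216, 94.6 and 130 CPM there, against 13.5, 4.38 and 18.2 CPM in WT. Cd68, Adgre1 and Fcgr1 were lower, at 186, 69.4 and 5.12 CPM against 425, 123 and 11.2 CPM in WT. DNGR-1 KO spleen sample 1, with the lowest Syk, had the highest erythroid sum, at 50334 CPM. The part of T cell, macrophage and erythroid transcripts in the levels of Card9, Malt1, Btk and Syk was not tested.

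The balance of the members within a library was described by ratios of their levels per length, which do not depend on library scaling. The size of each ratio does depend on the length used, here the union of exons, but its comparison between samples does not. For Malt1 that union is 18040 bases against 6404 in the longest transcript, and for Syk 9362 against 5363 bases. Ptpn6 exceeded Syk by 36.9-fold to 72.3-fold in the WT BM samples and by 38.5-fold, 43.6-fold and 50.1-fold in DNGR-1 KO BM, and by 69.8-fold in WT spleen and 86.2-fold and 46.4-fold in DNGR-1 KO spleen. The genotypes overlapped, and the value of 72.3 belonged to WT sample 1. Inpp5d to Syk was 1.80 in that sample and between 3.65 and 4.42 in the other 5 BM samples and 5.56 in WT spleen and 10.8 and 3.32 in DNGR-1 KO spleen.

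Lyn to Syk stayed between 9.14 and 12.6 in all BM samples and was 17.5, 29.0 and 8.66 in spleen. Within the CARD9 complex, Card9 to Bcl10 was 0.45 to 0.75 in BM and 0.45, 0.94 and 0.32 in spleen. Card9 to Malt1 ranged from 6.76 to 13.4 in BM and from 31.9 in WT spleen to 2.20 in DNGR-1 KO spleen sample 2, the widest of these ratios.

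The genes whose pattern over the 9 samples was most like that of Syk, by the root mean square difference of centred log2 CPM among 8569 genes with at least 10 counts in every sample, were Rps6ka4 (0.13), Dhx38 (0.16), 4833439L19Rik (0.16), Kcnab2 (0.17) and Rps6ka1 (0.19). None of the other 9 members was among them. Vav1 was the closest at 0.33, rank 180, followed by Ptpn6 at 0.42 and Plcg2 at 0.47, while a flat gene would score 0.48 and the median of all genes was 0.71. Card9, at 0.82, was less like Syk than most genes. These values are a description over samples that share tissues and libraries.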

How the data were processed

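For each gene the authors deposited an expected count, not normalized (25.6% of nonzero values were not whole). The authors also deposited log2 values made by the variance stabilizing transformation (VST) of DESeq. The submitters' processing notes name Trimmomatic 0.36, STAR 2.5.2, RSEM 1.3.0, DESeq2 1.18.1 and GRCm38; the annotation release and strand setting are not given in the sources used here. Libraries were total RNA (KAPA Riboerase) on DNBSEQ. Expected counts were rounded; the design had assumed counts. Symbols and lengths came from GENCODE M21 (51719 of 51912 identifiers matched). Tests used edgeR 4.0.16 under R 4.3.3 (TMM, filterByExpr, quasi-likelihood, Benjamini-Hochberg over all genes, threshold 0.05), BM genotypes over 6 samples and tissues over 9 with genotype as covariate. DESeq2 1.42.0, limma 3.58.1, other filters and scaling, the replicate block and leaving out samples were alternatives. Scripts were tested on simulated data. Named genes were the members, genes past the threshold in pathway lists (up to 4 a direction between tissues), both counterpart lists, the 5 genes most like Syk and leading markers; others are marked. Members, lists and tests were chosen with earlier results of these data known. Protein sequences and a Lyn promoter were not used here, and 2 genes of the pathway lists are not reported here and were left out of their counts. No replicate pair was close enough to be 1 library deposited again (chi-square per gene 23.4 to 226).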

Additional observations from a re-analysis of the deposited data

How the results depend on the processing

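Under every alternative and every left-out sample, 0 of the 10 genes passed the threshold in either comparison (lowest adjusted p 0.531 in BM for Lyn and 0.0564 between tissues for Card9). In BM the 4 calls over all genes became 10 by DESeq2, 0 by limma on VST values, 10 with no filter and 2 to 15 without 1 sample, and Ptpn11 turned to 0.075 without WT sample 1 (range -0.21 to 0.075). Between tissues the 2631 calls became 4331 by DESeq2 and 1336 with DNGR-1 KO samples only. Whether same-numbered samples came from the same mice could not be decided. Deviations of same-numbered BM samples correlated at 0.10, 0.099 and -0.081 (mean 0.040), too few values with 3 samples a group to exclude pairing. With the replicate number as a block there were 4 calls in BM, 1246 between tissues and 5 T cell counterparts. In that fit 16 of the 30 list genes called between tissues kept the call. The 14 that lost it were Cblb, Clec4e, Cybb, Fcgr4, Fyn, Lilrb4a, Ncf4, Pilra, Prkcb, Prkcq, Ptpn2, Shc1, Siglece and Trem2.

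Estimates near 0 between tissues changed sign. Plcg2 was 0.050 by DESeq2, 0.034 by limma-voom, 0.095 on VST values, 0.052 with RLE scaling and 0.0096 with at least 10 counts in every sample. Malt1 was -0.12 with the block. With DNGR-1 KO samples only, Inpp5d was -0.010, Ptpn6 -0.13, Bcl10 -0.016 and Lyn -0.11. Leaving out single samples gave ranges of -0.55 to 0.066 for Syk, -0.0090 to 0.52 for Inpp5d, -0.13 to 0.44 for Ptpn6, -0.014 to 0.77 for Bcl10, -0.67 to 0.47 for Malt1, -0.37 to 0.23 for Plcg2, -0.46 to 0.060 for Vav1 and -0.10 to 0.59 for Lyn. In spleen, 2 members were at least 2-fold from WT in DNGR-1 KO sample 1 alone and 3 in sample 2 alone. RLE scaling moved the median of all genes by 0.060 between tissues. Causes were not tested. With 3 pools a group, the BM intervals left room for log2 changes of up to 1.52.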
